A study of Mus musculus with 18 samples.

Results

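Colon tissue of *Cldn2*KO mice was compared with colon tissue of WT mice after recovery from colitis induced by dextran sulfate sodium (DSS). The members are the libraries whose treatment label is DSS-Recovery, 3 *Cldn2*KO and 3 WT, which is 6 of the 18 RNA-seq libraries of the series, with the lanes of each library summed. *Cldn2* encodes claudin-2, a tight junction protein that forms a paracellular channel for cations and water, and DSS is a polymer given in drinking water that injures the colonic epithelium. The comparison asks how loss of claudin-2 is reflected in the transcriptome of the mucosa while it repairs. All mice were C57BL/6, and the WT mice were littermates of matched age and sex. The *Cldn2*KO allele is the only one named in the labels, and it was absent from the WT group. One protocol text, which names azoxymethane (AOM), a carcinogen, at 10 mg/kg with 3 cycles of 2.5% DSS, is attached to all 18 samples. The source and treatment labels of the 6 recovery samples name mucosal repair and recovery from DSS only. Ages and the DSS schedule of the recovery mice were not given in the sources used here. The other 12 libraries are 3 untreated controls and 3 AOM/DSS colons of each genotype, and their values are given beside the recovery values where a result turns on them. Each recovery library carries an animal number of its own. The p-values come from 1 fit of all 18 libraries, so they rest on the spread between libraries within the 6 groups of the series.

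Each library held between 17.9 and 26.03 M counted reads, with a mean of 21.1 ± 4.32 M in WT recovery and 21.5 ± 1.35 M in *Cldn2*KO recovery (SD, n = 3 each). *Cldn2* itself was measured at 504, 309 and 486 CPM (counts per M reads, scaled by TMM) in the WT libraries and at 0.375, 0.557 and 0.394 CPM in the *Cldn2*KO libraries, so each of the 6 followed its genotype label. Epithelial markers summed to between 16376 and 24567 CPM in all 6 libraries and the groups overlapped. The study describes the tissue as distal colon, but the genes that mark the distal colon, most of them posterior Hox genes, were low. The 6 tested genes of 8 such markers summed to at most 3.59 CPM in each recovery library, with *Hoxd12* at 0 in all 6 libraries. WT replicate 2 stood apart from the other 5 libraries on the first principal component, which held 41.4% of their variance. *Xist* exceeded 100 CPM in 2 of 3 libraries of each genotype.

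Interferons bind receptors whose signal reaches the nucleus through transcription factors and switches on several groups of genes. These include the immunity-related GTPases that attack vacuoles of intracellular pathogens, antiviral effectors, and the proteasome subunits and transporters that load peptides onto MHC class I. Interferon-γ also induces CIITA, the master activator of MHC class II genes. In the gut, MHC class II is found on dendritic cells, macrophages and B cells, and epithelial cells show it when exposed to interferon-γ and microbes. Repair after DSS also draws on growth factors of the EGF family, renewed division of crypt cells, and rebuilding of junctions and the brush border.

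The promoters of 5 genes that were lower in *Cldn2*KO recovery are shown first, as examples of the interferon-induced and MHC class II genes described below. Each is the RefSeq window from 250 bases before to 50 bases after the transcription start (GRCm38.p6), read 5′ to 3′ on the gene's strand. In the windows of *Igtp* (chr11:58199306-58199605, plus strand), *Irgm2* (chr11:58214727-58215026, plus strand) and *Gbp7* (chr3:142530086-142530385, plus strand), capitals mark the interferon-response motif GAAANNGAA on either strand. In those of *H2-Aa* (chr17:34287774-34288073, minus strand) and *H2-Eb1* (chr17:34305617-34305916, plus strand), capitals mark the Y box motif CTGATTGG of MHC class II promoters.
Igtp: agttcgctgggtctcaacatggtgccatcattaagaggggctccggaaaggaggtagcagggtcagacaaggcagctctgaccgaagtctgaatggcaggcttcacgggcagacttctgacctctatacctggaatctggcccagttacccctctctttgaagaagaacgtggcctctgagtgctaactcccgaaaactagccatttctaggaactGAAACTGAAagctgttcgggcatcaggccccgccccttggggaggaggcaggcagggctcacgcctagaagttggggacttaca
Irgm2: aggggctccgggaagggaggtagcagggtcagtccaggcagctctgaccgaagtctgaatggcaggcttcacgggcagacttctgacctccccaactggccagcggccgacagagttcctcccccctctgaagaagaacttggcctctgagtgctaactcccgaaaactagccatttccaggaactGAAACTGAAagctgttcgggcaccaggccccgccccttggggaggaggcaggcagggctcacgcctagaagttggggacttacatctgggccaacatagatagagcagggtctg
Gbp7: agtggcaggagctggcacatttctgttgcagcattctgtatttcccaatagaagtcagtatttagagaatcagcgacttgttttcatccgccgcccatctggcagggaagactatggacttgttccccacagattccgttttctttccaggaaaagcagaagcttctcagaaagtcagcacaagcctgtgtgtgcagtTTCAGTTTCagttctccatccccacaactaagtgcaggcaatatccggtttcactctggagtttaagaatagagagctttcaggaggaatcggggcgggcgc
H2-Aa: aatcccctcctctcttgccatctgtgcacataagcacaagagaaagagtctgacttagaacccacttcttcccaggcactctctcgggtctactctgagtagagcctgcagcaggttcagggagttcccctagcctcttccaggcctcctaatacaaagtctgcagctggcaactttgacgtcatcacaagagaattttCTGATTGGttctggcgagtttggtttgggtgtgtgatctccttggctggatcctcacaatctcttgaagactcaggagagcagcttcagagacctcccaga
H2-Eb1: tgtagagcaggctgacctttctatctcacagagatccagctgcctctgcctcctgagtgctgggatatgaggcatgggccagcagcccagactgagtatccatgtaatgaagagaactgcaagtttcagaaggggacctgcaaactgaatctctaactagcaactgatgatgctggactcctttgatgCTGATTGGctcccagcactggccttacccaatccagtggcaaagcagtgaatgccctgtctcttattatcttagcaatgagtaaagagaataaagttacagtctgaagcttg

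The interferon motif was present in 9 of the 10 interferon-induced GTPase genes that had a window, which is 90%, and in 17 of the 27 antiviral genes, which is 63.0%. It was present in 5 of 20 class I genes and in 1 of 12 class II genes. Of all tested genes with a window, 8.85% had it. The related GAS motif TTCNNNGAA, an interferon-gamma response element, was present in 6 of the 10 GTPase genes, 4 of the 27 antiviral genes and in 8.43% of tested genes. The Y box letters were present in 3 of the 12 class II genes with a window, 8 of 20 class I genes, 7 of 25 mitosis genes and 6.19% of tested genes, so they were not particular to class II. The motifs can overlap in sequence and were counted separately on both strands. Among all genes called lower, 11 of 55 with a window had the interferon motif, and among those called higher, 7 of 75 had it. These matches describe letters in the window and do not show binding.

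A gene was called when its edgeR quasi-likelihood test had a Benjamini-Hochberg (BH) adjusted p under 0.05 over all 16937 genes tested. The test called 165 genes, or 0.974% of those tested, of which 93 were higher (0.549%) and 72 lower (0.425%) in *Cldn2*KO recovery. The median log2 fold change over all tested genes was 0.00. The 3 *Cldn2*KO libraries lay entirely above or below the 3 WT libraries in CPM for 23.9% of tested genes, above for 12.3% and below for 11.7%, and 19.9% had an unadjusted p under 0.05. The groups of all 165 called genes were apart in this sense. With DESeq2, 1351 of the 16937 genes were called, and with limma-voom and sample weights 1900, so list counts by these tests stand against larger totals. The edgeR count depended on single libraries. It was 3 without *Cldn2*KO replicate 2, 16 without WT replicate 2 and 31 without WT replicate 3, against 424, 453 and 332 without *Cldn2*KO replicate 1, *Cldn2*KO replicate 3 and WT replicate 1. Every called gene kept its sign in each of these fits.

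The lists, which were chosen with earlier results of these data known, hold 3.69% of tested genes, and those of interferon response and antigen presentation 0.667%. Of the 72 genes called lower, 30 belonged to a gene list (29 lists in all), and 28 of these were genes of interferon response or antigen presentation. Their median log2 fold change was -1.38 and 50 fell by at least 2-fold. Of the 93 genes called higher, 7 belonged to any list and 0 to the interferon and presentation lists. Their median was 0.83, and 24 rose by at least 2-fold.

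Genes of MHC class II were among those with the greatest differences. *H2-Aa*, the α chain of the class II molecule I-A (ENSMUSG00000036594, GRCm38 chromosome 17, 34282744 to 34287827), stood at 265, 588 and 428 CPM in WT and at 9.64, 8.44 and 13.8 CPM in *Cldn2*KO. It was 40.1-fold lower, with a log2 fold change of -5.33 (SE 0.71, edgeR BH-adjusted p 0.00474). *H2-Ab1*, its β chain partner, stood at 119, 213 and 121 CPM in WT and at 4.07, 4.18 and 13.4 CPM in *Cldn2*KO. *H2-Eb1*, the β chain of I-E, stood at 62.3, 117 and 82.7 CPM against 2.36, 3.39 and 6.64 CPM. No *Cldn2*KO library reached the lowest WT library for any of these 3 genes, and the log2 fold changes were -4.39 for *H2-Ab1* and -4.40 for *H2-Eb1*. *Cd74*, the invariant chain that escorts class II molecules, stood at 248, 369 and 249 CPM in WT and at 5.46, 4.13 and 18.5 CPM in *Cldn2*KO (log2 fold change -4.94, SE 0.76, edgeR BH-adjusted p 0.0131).

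*Ciita*, the class II transactivator (chromosome 16, 10488178 to 10527564), stood at 9.40, 5.60 and 8.40 CPM in WT and at 0.321, 0.325 and 0.787 CPM in *Cldn2*KO. Its log2 fold change was -4.01 (SE 0.66, edgeR BH-adjusted p 0.0166). The peptide exchange genes fell too. *H2-DMb1* had a log2 fold change of -4.48 and *H2-DMa* one of -2.88. In all, 7 of the 16 class II list members that were tested were called lower and 0 higher, and 14 of 16 had a log2 fold change below 0. The list median was -0.93, and it ran from -2.01 to -0.44 with a recovery library left out. Members that were not called included genes that were barely expressed. *H2-DMb2* and *H2-Ob*, which mark B cells, reached at most 1.51 CPM in any recovery library, and *Ctss*, a lysosomal protease, had a log2 fold change of -0.43, or -0.13 without WT replicate 2 (edgeR BH-adjusted p 0.359 with all libraries). The 7 calls were made in every alternative fit but 3. Without *Cldn2*KO replicate 2 there were 0, with an adjusted p for *H2-Aa* of 0.087, and without WT replicate 2 or WT replicate 3 there were 6.

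**Figure D1:**
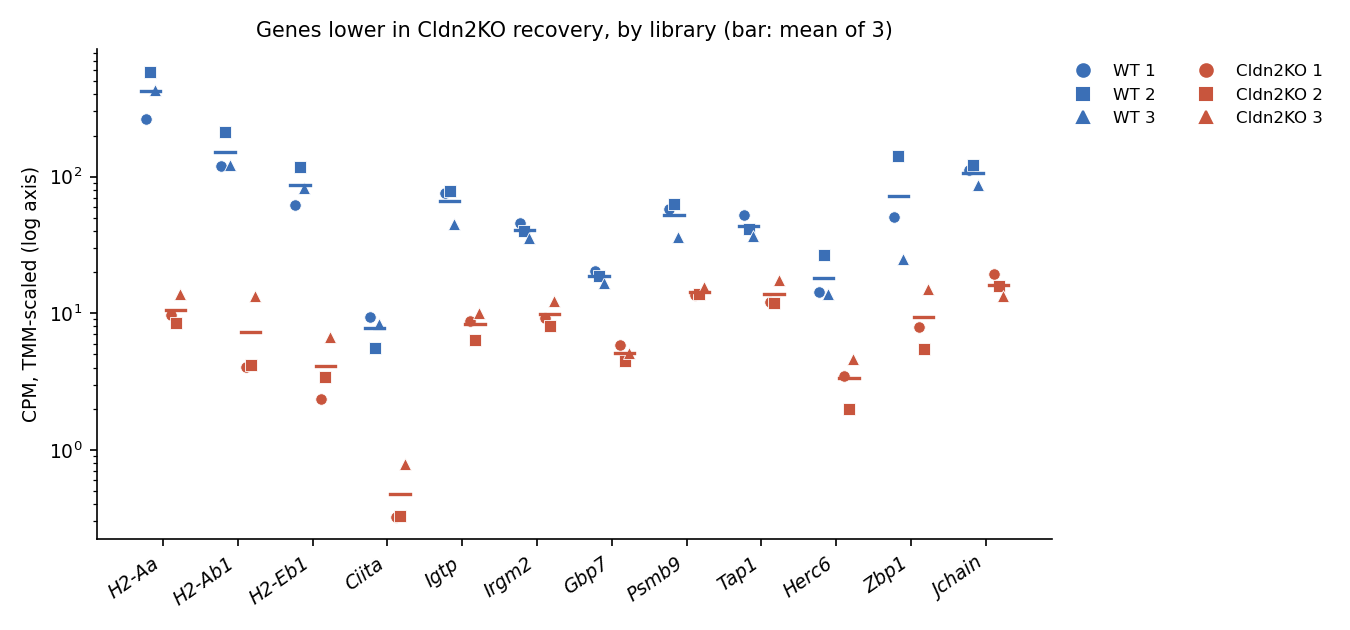
CPM (TMM-scaled, log axis) of 12 genes called lower, with a point for each library, WT in blue and *Cldn2*KO in red, and a bar at the mean of 3 libraries. *H2-Aa* lies at 265 CPM or more in WT and at 13.8 CPM or less in *Cldn2*KO, and no gene's groups overlap.

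Of the class I pathway, 3 genes were called lower. The immunoproteasome subunit *Psmb9* (chromosome 17, 34181988 to 34187764) stood at 58.1, 62.8 and 36.4 CPM in WT and at 13.5, 13.9 and 15.5 CPM in *Cldn2*KO (log2 fold change -1.87, SE 0.31, edgeR BH-adjusted p 0.0166). *Psmb8*, another inducible proteasome subunit, had the same log2 fold change to 2 decimals with a wider error (-1.87, SE 0.42, edgeR BH-adjusted p 0.0461). *Tap1*, which carries peptides into the endoplasmic reticulum, stood at 52.7, 41.2 and 36.6 CPM against 12.2, 11.9 and 17.4 CPM (log2 fold change -1.66). These were the 3 of 23 list members called lower, with 0 higher, and 17 of 23 had all *Cldn2*KO libraries below all WT libraries. The list median was -0.64. The heavy and light chains were not called. *B2m*, the light chain, stood at 1565, 1708 and 1140 CPM in WT and at 716, 631 and 591 CPM in *Cldn2*KO (log2 fold change -1.19, edgeR BH-adjusted p 0.0568). *H2-K1* had a log2 fold change of -0.70 (edgeR BH-adjusted p 0.0996) and *Nlrc5*, the class I transactivator, one of -2.17 (edgeR BH-adjusted p 0.0714). *H2-Q6* and *H2-Q7* are near-identical, and how reads were divided between them is uncertain. The number of class I calls was 0 without *Cldn2*KO replicate 2 or WT replicate 2, 1 without *Cldn2*KO replicate 1, WT replicate 1 or WT replicate 3, 1 with no filter or with sex as a covariate, and 10 with DESeq2.

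Among interferon-induced GTPases, 8 were called lower. *Igtp* (ENSMUSG00000078853, chromosome 11, 58199556 to 58207591), which encodes the GTPase IRGM3, stood at 75.5, 78.5 and 45.0 CPM in WT and at 8.78, 6.36 and 10.0 CPM in *Cldn2*KO (log2 fold change -2.98, SE 0.45, edgeR BH-adjusted p 0.0114). *Irgm2* stood at 45.8, 40.2 and 35.7 CPM against 9.26, 8.12 and 12.2 CPM (log2 fold change -2.04, SE 0.30, edgeR BH-adjusted p 0.0083). The annotated spans of *Igtp* and *Irgm2* overlap, so the division of reads between them is uncertain. *Gbp7*, a guanylate-binding protein, stood at 20.4, 18.7 and 16.7 CPM against 5.84, 4.45 and 5.12 CPM, with a log2 fold change of -1.86 (edgeR BH-adjusted p 0.00824). The lowest WT library was above the highest *Cldn2*KO library for each of them. *Iigp1* was lower by the greatest factor in the group, 69.1, 40.7 and 15.4 CPM in WT against 3.16, 2.37 and 1.82 CPM in *Cldn2*KO (log2 fold change -4.09). *Irgm1*, *Gbp3*, *Gbp8* and *Ifi47* were called lower as well, with log2 fold changes between -2.42 and -1.32.

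Thus 8 of 16 tested GTPases were called lower and 0 higher, and all 16 had a log2 fold change below 0, with a median of -2.03. The other 8 were not called. *Gbp2* stood at 75.5, 58.6 and 22.3 CPM in WT and at 10.1, 5.01 and 8.86 CPM in *Cldn2*KO (log2 fold change -2.71, edgeR BH-adjusted p 0.0603). *Tgtp1* and *Tgtp2* share sequence and are uncertain, with log2 fold changes of -3.40 and -2.91. Guanylate-binding proteins also have close paralogs, and how multi-mapping reads were treated was not stated. The number of GTPases called was 0 without *Cldn2*KO replicate 2, 3 without WT replicate 2 and 12 with DESeq2.

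Among the antiviral interferon-stimulated genes, 9 of 37 were called lower and 0 higher, 36 of 37 had a log2 fold change below 0, and the median was -1.68. *Herc6*, the mouse ISG15 ligase, stood at 14.4, 26.5 and 13.9 CPM in WT and at 3.48, 1.99 and 4.63 CPM in *Cldn2*KO (log2 fold change -2.43, SE 0.37, edgeR BH-adjusted p 0.00955). *Trim30a*, a ubiquitin ligase induced by interferon, stood at 15.4, 35.1 and 17.1 CPM against 2.36, 2.51 and 4.48 CPM (log2 fold change -2.85). *Zbp1*, a sensor of Z-form nucleic acids that can start necroptosis, stood at 50.3, 141 and 24.96 CPM against 7.87, 5.47 and 14.96 CPM (log2 fold change -2.93). In all 3 genes WT replicate 2 was the highest library. *Parp9* and its partner *Dtx3l* had log2 fold changes of -1.07 and -1.09, and the other 4 called genes were *Cmpk2*, *Ifit1bl1*, *Sp100* and *Xaf1*.

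The best-known members of the list were not called. *Isg15*, a ubiquitin-like modifier, stood at 24.5, 64.8 and 31.7 CPM in WT and at 1.39, 1.02 and 15.4 CPM in *Cldn2*KO (log2 fold change -2.76, edgeR BH-adjusted p 0.0812). *Ifit1*, which binds foreign RNA, stood at 76.3, 361 and 156 CPM against 13.1, 9.0003 and 61.8 CPM (edgeR BH-adjusted p 0.0812). *Cldn2*KO replicate 3 held the highest *Cldn2*KO value for both genes. Without that library 23 of 37 antiviral genes were called lower, and without *Cldn2*KO replicate 2 there were 0. The number was 1 without WT replicate 2 and 1 in a fit of the 6 recovery libraries. In the whole list, *Cldn2*KO replicates 1 and 2 lay below all WT libraries for 34 and 35 genes and *Cldn2*KO replicate 3 for 26. Over all tested genes, *Cldn2*KO replicates 1, 2 and 3 lay below all WT libraries for 27.4%, 31.5% and 32.4%, and above them for 30.2%, 32.5% and 31.1%.

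Of 21 tested genes of interferon signalling and chemokines, 1 was called lower and 0 higher, the list median was -0.43 (-0.23 without *Cldn2*KO replicate 1), and 7 had a log2 fold change above 0. *Irf1*, a transcription factor induced by interferon, had a log2 fold change of -0.63 (edgeR BH-adjusted p 0.0738). The T-cell chemokine *Cxcl9* stood at 7.33, 10.9 and 4.73 CPM against 0.214, 0.186 and 1.03 CPM, which was not called (edgeR BH-adjusted p 0.0812). *Cxcl10* stood at 1.99, 2.37 and 2.60 CPM against 0.535, 0.650 and 0.492 CPM with the same adjusted p.

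The summed levels of T and NK cell, B and plasma cell, and macrophage markers were lower in all *Cldn2*KO libraries than in all WT libraries. The summed level of 15 T and NK cell markers was 84.5, 232 and 83.7 CPM in WT and 58.4, 55.2 and 41.8 CPM in *Cldn2*KO, with 14 of 15 markers below 0 and 0 called. The 12 B and plasma cell markers summed to 326, 377 and 241 CPM in WT and to 57.8, 59.5 and 56.6 CPM in *Cldn2*KO, with 11 of 12 below 0. *Jchain*, which joins the chains of secreted IgA in plasma cells, was the 1 marker called, at 111, 122 and 86.6 CPM in WT and 19.4, 15.7 and 13.3 CPM in *Cldn2*KO (log2 fold change -2.72, edgeR BH-adjusted p 0.0337). Macrophage and monocyte markers lay between 84.9 and 130 CPM in WT and between 63.2 and 75.7 CPM in *Cldn2*KO, with 11 of 12 below 0. Dendritic cell, neutrophil, fibroblast, endothelial and smooth muscle sums overlapped between genotypes. Enteric neuron and glia markers lay the other way, at 67.7, 78.2 and 60.0 CPM in WT and 101, 97.3 and 87.7 CPM in *Cldn2*KO, with 10 of 10 above 0 and 0 called. None of the immune markers was at 0 in all 6 libraries. The part of these cells in the lower MHC class II and interferon genes was not tested, and in bulk tissue fewer cells of a type and less RNA per cell cannot be told apart.

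**Figure D2:**
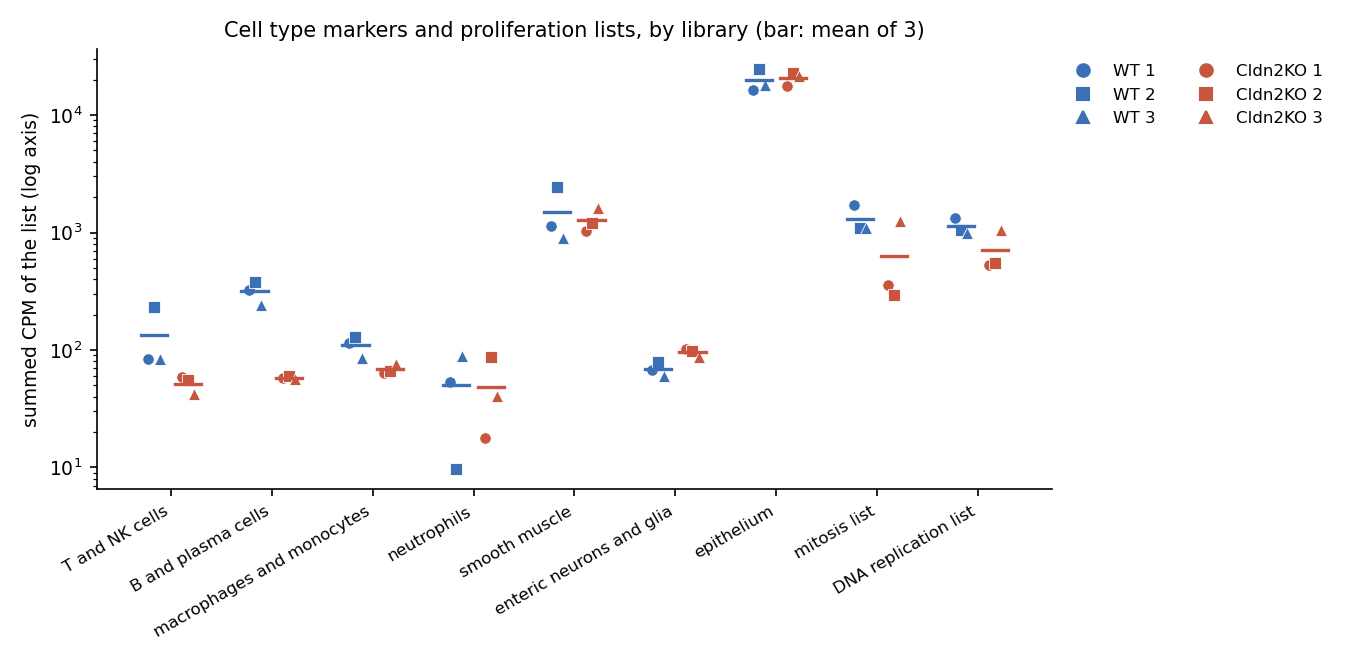
Summed CPM (log axis) of 7 marker lists and of the mitosis and DNA replication lists, with a point for each library, WT in blue and *Cldn2*KO in red, and a bar at the mean of 3. T and NK, B and plasma cell and macrophage sums do not overlap between genotypes, epithelial sums do, and *Cldn2*KO replicate 3 (triangle) lies with WT for mitosis.

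The same genes were compared between untreated *Cldn2*KO and WT colons, which share no library with the recovery comparison. Of the 72 genes called lower in recovery, 51 had the same sign there and 31 were called there too, counted in either direction. Of all tested genes below 0 in recovery, 47.3% had the same sign in untreated colon, where 1.05% of tested genes were called lower and 0.124% higher. *H2-Aa* had a log2 fold change of -4.09 in untreated colon (edgeR BH-adjusted p 0.00713) and *Igtp* one of -2.28 (edgeR BH-adjusted p 0.0208). The difference between the genotype effects in recovery and in untreated colon was not called for *H2-Aa* (edgeR BH-adjusted p 0.463) or *Igtp* (0.569). In AOM/DSS colon, 70 of the 72 had the same sign, against 66.2% of all tested genes below 0 in recovery. The 1 called there was *Cldn2*, which is 0.0059% of tested genes, and 0% were called higher. *H2-Aa* had a log2 fold change of -1.12 there (edgeR BH-adjusted p 0.871), and the difference from recovery was not called (0.651). The list medians in untreated colon, AOM/DSS and recovery were -1.05, -0.83 and -0.93 for MHC class II, -2.27, -1.12 and -2.03 for the GTPases, and -1.55, -0.31 and -1.68 for the antiviral genes. The WT control replicate 2 lacked posterior Hox expression like the recovery libraries, unlike the other 5 controls. Without it 503 genes were called in recovery, including all 165.

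**Figure D3:**
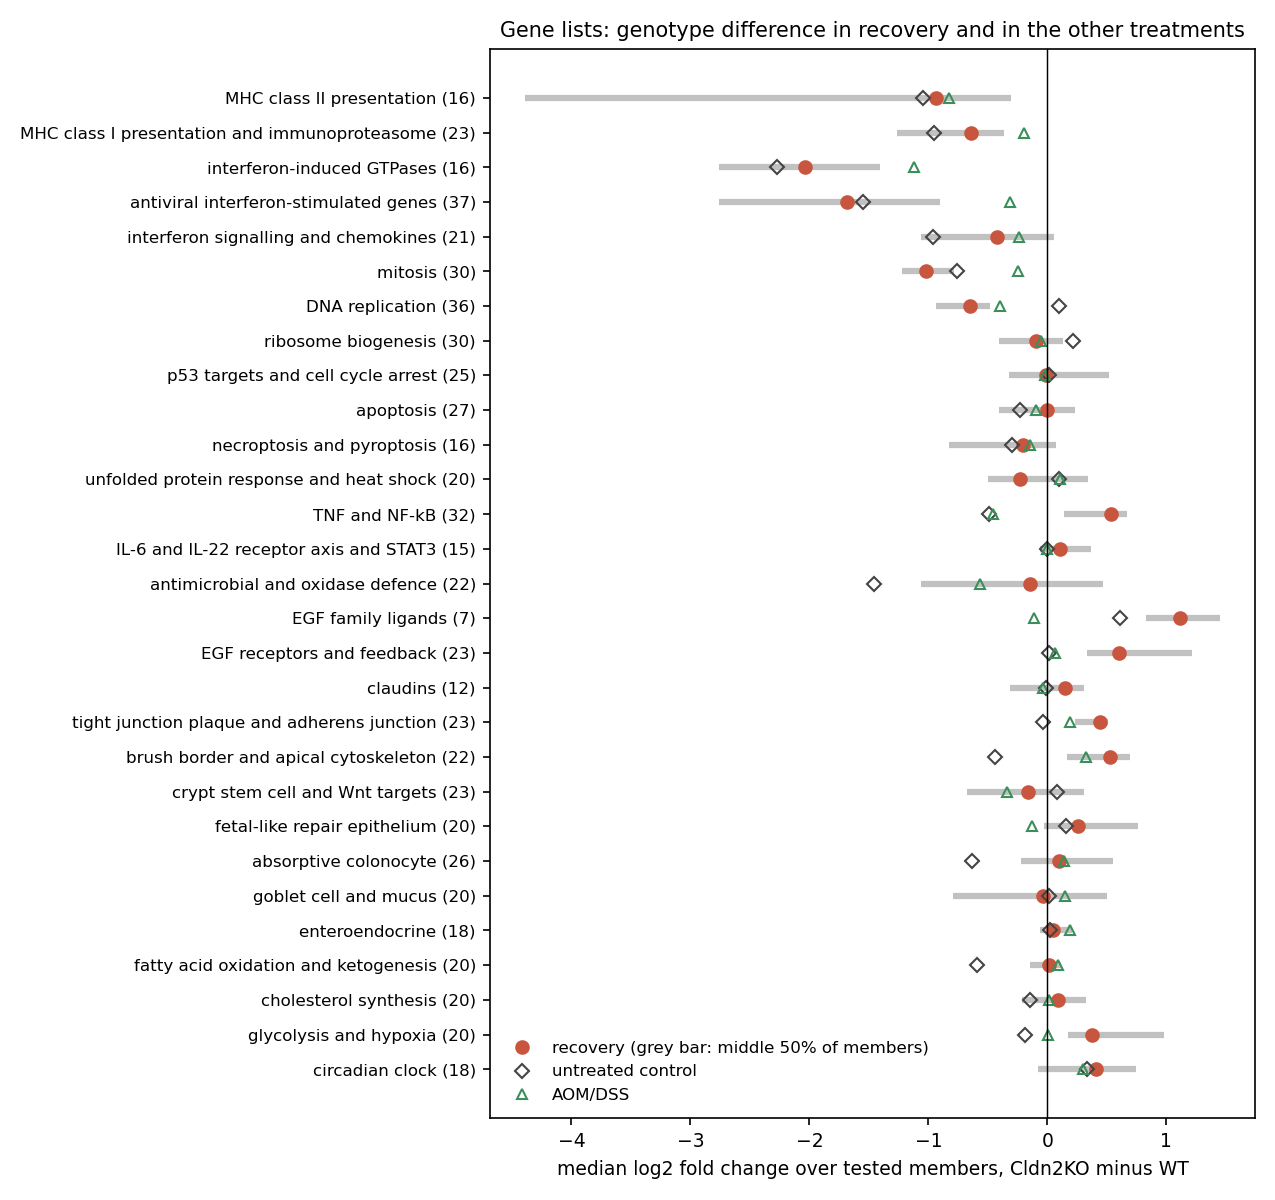
Median log2 fold change, *Cldn2*KO minus WT, of the tested members of 29 gene lists (number tested in brackets) in recovery (red), untreated colon (open diamond) and AOM/DSS (open triangle), with grey bars for the middle 50% of members in recovery. The interferon-induced GTPases lie at -2.03 in recovery and -2.27 in untreated colon, while TNF and NF-kB genes lie at 0.54 in recovery and -0.49 in untreated colon.

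The genes called higher in *Cldn2*KO recovery included proteins of the apical cytoskeleton, junctions and the EGF receptor pathway. *Gprc5a*, a retinoic acid-induced orphan receptor of epithelia, had the largest increase of the named genes that were called. It stood at 105, 435 and 461 CPM in *Cldn2*KO and at 80.4, 74.96 and 68.5 CPM in WT (log2 fold change 2.16, SE 0.41, edgeR BH-adjusted p 0.030), and *Cldn2*KO replicate 1 was close to WT. *Bhlhe40*, a transcriptional repressor of the clock, stood at 131, 231 and 234 CPM against 86.4, 54.0 and 83.3 CPM (log2 fold change 1.41). *Ide*, the insulin-degrading enzyme, had the lowest adjusted p among the higher genes (0.00444 by edgeR). Its levels were 108, 142 and 107 CPM in *Cldn2*KO and 57.8, 42.2 and 57.1 CPM in WT, 2.27-fold higher. *Malat1*, a nuclear long noncoding RNA, stood at 738, 902 and 484 CPM against 322, 215 and 323 CPM (log2 fold change 1.31).

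*Ahnak*, a giant membrane scaffold, stood at 614, 1060.2 and 1026 CPM in *Cldn2*KO and at 368, 338 and 356 CPM in WT (log2 fold change 1.35, SE 0.22, edgeR BH-adjusted p 0.0153). *Plec*, which links intermediate filaments to other structures, stood at 408, 599 and 632 CPM against 246, 234 and 216 CPM (log2 fold change 1.23). *Dsp*, the plakin of desmosomes, stood at 328, 459 and 484 CPM against 208, 156 and 220 CPM (log2 fold change 1.12). *Anxa11*, *Fgd6*, *Prag1*, *Cdc42bpb*, *Dvl3* and *Sipa1l3* completed the 15 largest increases by the naming rule, with log2 fold changes between 1.09 and 1.36. The kinase *Mink1*, the actin regulator *Flii*, *Nbeal2*, *Cep170b* and *Zfp335* were among the lowest adjusted p values outside the lists, between 0.0153 and 0.0183 by edgeR.

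Genes of the brush border were among those called higher. *Eps8l3*, a paralog of the microvillar actin regulator EPS8, stood at 159, 316 and 301 CPM in *Cldn2*KO and at 102, 77.2 and 100.3 CPM in WT (log2 fold change 1.47, SE 0.25, edgeR BH-adjusted p 0.0173). *Ezr*, ezrin, which ties microvillar actin to the membrane, stood at 463, 932 and 851 CPM against 418, 269.6 and 389 CPM (log2 fold change 1.06, SE 0.23, edgeR BH-adjusted p 0.0418). Of 22 tested brush border genes, 2 were called higher and 0 lower, 19 had a log2 fold change above 0 and 12 had all *Cldn2*KO libraries above all WT libraries, with a median of 0.52. *Eps8l2* had a log2 fold change of 0.85 (edgeR BH-adjusted p 0.0502) and *Myo1a*, the brush border myosin, one of 0.62 (edgeR BH-adjusted p 0.105). The list median was -0.44 in untreated colon and 0.32 in AOM/DSS. The number called was 0 without *Cldn2*KO replicate 2, WT replicate 2 or WT replicate 3 and in a fit of the 6 recovery libraries, and 7 with DESeq2.

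Among junction genes other than claudins, few were called. *Cgn*, cingulin, a cytoplasmic plaque protein, stood at 185, 241 and 213 CPM in *Cldn2*KO and at 151, 115 and 134 CPM in WT (log2 fold change 0.68, edgeR BH-adjusted p 0.0418). *Patj*, a polarity scaffold, stood at 61.8, 71.6 and 61.9 CPM against 44.0, 42.8 and 44.7 CPM (log2 fold change 0.57, edgeR BH-adjusted p 0.0418). These were the 2 of 23 tight junction plaque and adherens junction genes called higher, with 0 lower, while all 23 had a log2 fold change above 0 and 12 had groups apart. The same 4 fits, no filter and the sex covariate gave 0 calls, leaving out WT replicate 1 gave 1, leaving out *Cldn2*KO replicate 1 gave 5, and DESeq2 gave 6. *Tjp1*, which encodes ZO-1, had a log2 fold change of 0.64 (edgeR BH-adjusted p 0.0764). Of 12 other claudins tested, 0 were called by edgeR or DESeq2 and 1 by limma-voom with sample weights, 1 had an unadjusted p under 0.05, and 7 had a log2 fold change above 0. *Cldn3* and *Cldn7*, the abundant sealing claudins, had log2 fold changes of 0.27 and 0.41, which ran from 0.15 to 0.49 and from 0.29 to 0.56 with a recovery library left out. *Cldn4* varied widely, at 49.6, 144 and 217 CPM in *Cldn2*KO and 53.4, 41.3 and 72.6 CPM in WT (edgeR BH-adjusted p 0.393).

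EGF receptor signalling is limited by feedback genes that it induces. *Errfi1*, which encodes the receptor inhibitor MIG6, stood at 133, 212 and 285 CPM in *Cldn2*KO and at 86.0, 73.2 and 82.5 CPM in WT (log2 fold change 1.38, SE 0.30, edgeR BH-adjusted p 0.042). *Fosl2*, an AP-1 factor, stood at 239.7, 233 and 254 CPM against 143, 134 and 161 CPM (log2 fold change 0.73). They were the 2 genes called among 23 tested receptors, feedback genes and AP-1 factors. Of these 23, 21 had a log2 fold change above 0, with a median of 0.60, which was 0.34 without *Cldn2*KO replicate 3. No member was called without *Cldn2*KO replicate 2 or any 1 of the WT libraries, in the 6-library fit, with no filter, with sex as a covariate or with the length trend removed, while 1 was called without *Cldn2*KO replicate 3 and 5 without *Cldn2*KO replicate 1 and with DESeq2. *Fosl1* and *Spry4* had larger but more variable log2 fold changes of 2.67 and 2.04 (edgeR BH-adjusted p 0.0798 and 0.149). With a recovery library left out these ran from 1.75 to 3.36 and from 0.91 to 2.54.

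Among the ligands, 0 of 7 were called by edgeR, 2 by DESeq2 and 2 by limma-voom, 4 had an unadjusted p under 0.05, and all 7 had a log2 fold change above 0, with a median of 1.11. *Hbegf*, heparin-binding EGF, stood at 25.6, 66.9 and 111 CPM in *Cldn2*KO and at 22.1, 11.5 and 20.9 CPM in WT (log2 fold change 1.89, edgeR BH-adjusted p 0.0756). *Nrg1*, a ligand of ERBB3 made in the stroma, stood at 3.37, 5.66 and 2.95 CPM against 1.51, 1.29 and 1.54 CPM (log2 fold change 1.46, edgeR BH-adjusted p 0.0784). Both had groups apart. Amphiregulin, *Areg*, stood at 23.1, 78.3 and 168 CPM against 46.0, 9.04 and 43.9 CPM, so the groups overlapped (edgeR BH-adjusted p 0.232). *Cldn2*KO replicate 1 was the lowest *Cldn2*KO library for *Hbegf*, *Areg*, *Errfi1* and *Fosl1*. With any single library left out, the ligand median lay between 0.62 and 1.52.

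**Figure D4:**
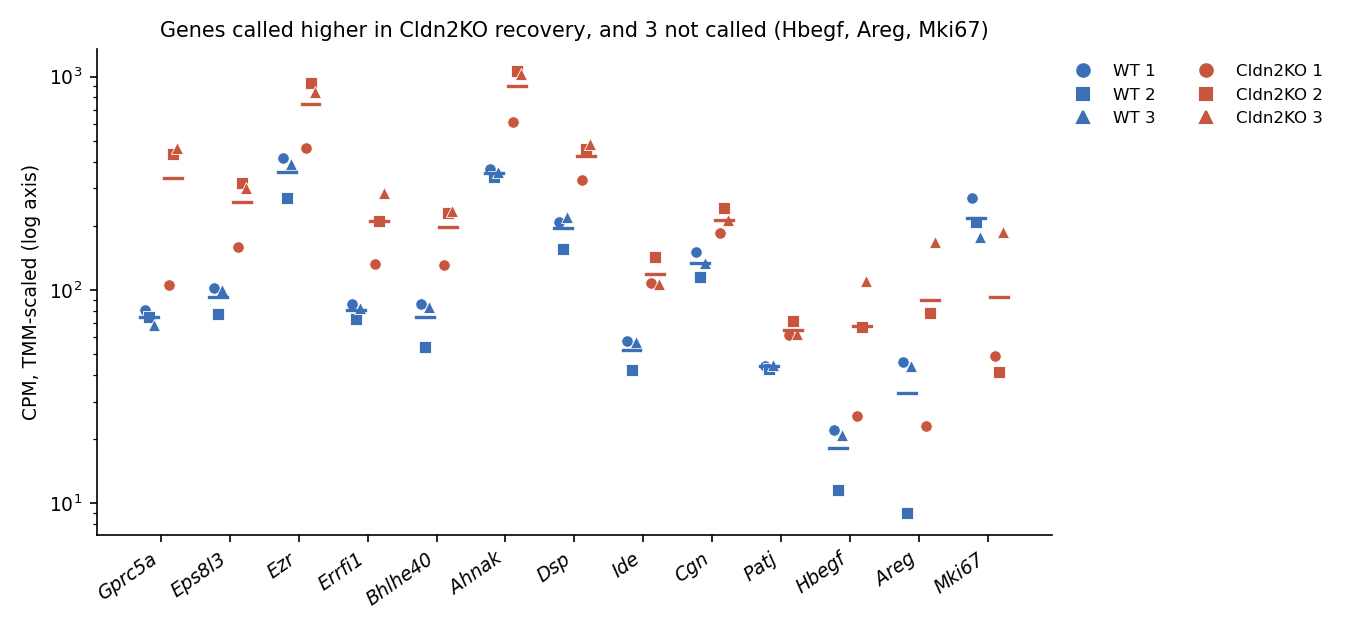
CPM (TMM-scaled, log axis) of 10 genes called higher and of *Hbegf*, *Areg* and *Mki67*, which were not called, with a point for each library, WT in blue and *Cldn2*KO in red, and a bar at the mean of 3. The groups of the 10 called genes do not overlap, and *Mki67* in *Cldn2*KO replicate 3 (triangle), at 188 CPM, lies among the WT libraries.

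A trend with transcript length ran through the comparison. Over 13927 genes with a mean of at least 1 CPM, divided by exon length into 5 bins of 2783 to 2788 genes, the median log2 fold change was -0.29, -0.07, 0.02, 0.11 and 0.20 from the shortest to the longest. In untreated colon these medians lay between -0.02 and 0.02, and in AOM/DSS between -0.06 and 0.03. WT replicate 2 deviated most from the mean of the 6 libraries, by 0.43 (log2) for the bin of shortest genes and -0.27 for that of the longest. The genes called higher had a median exon length of 6148 bases and those called lower one of 2490.5 bases, against 3604 bases for genes not called. With the length trend of each library removed, 46 genes were called higher and 47 lower, and 42 of the 93 and 42 of the 72 were among them. With trends in length and GC content removed, 13 and 33 were called, and 10 of the 93 and 29 of the 72 were among them. *Ide*, *Eps8l3*, *Ezr*, *Ahnak* and *Gprc5a* were called with the length trend removed. *Cgn* and *Errfi1* were not (edgeR BH-adjusted p 0.0566 and 0.0532), and the value for *Patj* moved to 0.29 (0.248). The log2 fold change of *Errfi1* was 1.38 with and without the trend. Of the other genes named above as higher, *Plec* (0.0757), *Prag1* (0.0731), *Malat1* (0.0586), *Cdc42bpb* (0.0575), *Dsp* (0.0554) and *Fosl2* (0.0853) lost their calls. The log2 fold changes of the first 5 moved from 1.23, 1.15, 1.31, 1.12 and 1.12 to 0.90, 0.95, 1.17, 0.99 and 0.93. *H2-Aa*, *Ciita*, *Igtp*, *Irgm2*, *Psmb9* and *Herc6* were called with the trend removed, while *Psmb8* (edgeR BH-adjusted p 0.0566), *Cmpk2* (0.0547) and the replication gene *Rfc4* (0.0816) were not. The log2 fold change of *Psmb8* moved from -1.87 to -1.79 and that of *Cmpk2* from -1.44 to -1.41.

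**Figure D5:**
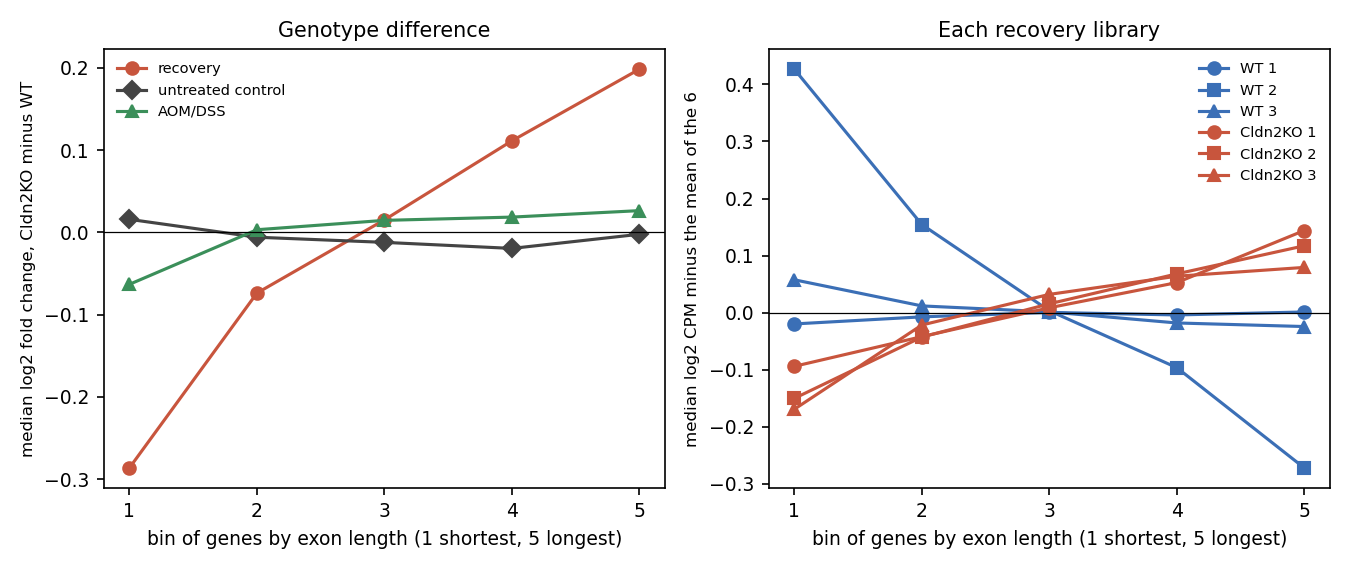
Left, median log2 fold change, *Cldn2*KO minus WT, in 5 bins of 13927 genes by exon length, in recovery (red), untreated colon (diamonds) and AOM/DSS (triangles). Right, median deviation of each recovery library from the mean of the 6 in log2 CPM. The recovery line runs from -0.29 to 0.20, and WT replicate 2 runs the steepest, from 0.43 to -0.27.

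Proliferation genes separated the *Cldn2*KO libraries from each other. *Mki67*, which encodes the Ki-67 antigen, stood at 269, 209 and 178 CPM in WT and at 49.3, 41.3 and 188 CPM in *Cldn2*KO. *Top2a*, the topoisomerase of dividing cells, stood at 260.2, 107 and 139 CPM against 40.2, 28.4 and 171 CPM, and *Cdk1*, the mitotic kinase, at 75.1, 69.0 and 51.8 CPM against 14.6, 12.5 and 57.0 CPM. In all 3 genes *Cldn2*KO replicates 1 and 2 were below every WT library and *Cldn2*KO replicate 3 was among them. Of 30 tested mitosis genes, *Cldn2*KO replicates 1 and 2 lay below all WT libraries for 29 and *Cldn2*KO replicate 3 for 7, which for replicate 3 is under its share of all tested genes. The summed list was 1717, 1082 and 1097 CPM in WT and 356, 292 and 1262 CPM in *Cldn2*KO. edgeR called 0 of the 30, of which 13 had an unadjusted p under 0.05 and 29 had a log2 fold change below 0, with a median of -1.02. DESeq2 called 5 lower and limma-voom 25, and without *Cldn2*KO replicate 3 edgeR called 26 lower with a median of -2.17. The mitosis median was -0.76 in untreated colon and -0.25 in AOM/DSS.

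*Rfc4*, a subunit of the clamp loader, stood at 31.9, 29.3 and 23.95 CPM in WT and at 8.94, 8.03 and 17.7 CPM in *Cldn2*KO (log2 fold change -1.30, edgeR BH-adjusted p 0.0418). It was the 1 gene called of 36 tested, 35 of which had a log2 fold change below 0, with a median of -0.65. *Cldn2*KO replicates 1 and 2 lay below all WT libraries for 33 genes and *Cldn2*KO replicate 3 for 10. *Prim1*, a primase subunit, stood at 31.1, 23.4 and 21.6 CPM against 6.75, 6.63 and 17.2 CPM (edgeR BH-adjusted p 0.0667). The list median was 0.10 in untreated colon and -0.40 in AOM/DSS, and in recovery it was -0.41 without *Cldn2*KO replicate 1 and -1.11 without *Cldn2*KO replicate 3. Without *Cldn2*KO replicate 3, 17 of the 36 were called lower, and without any other single recovery library 0 were. The number was also 0 with no filter, with sex as a covariate and with the length trend removed, 8 with DESeq2 and 21 with limma-voom. Ribosome biogenesis genes had a median of -0.09 with 0 of 30 called by edgeR, 5 by DESeq2, 7 by limma-voom and 8 at an unadjusted p under 0.05, and 8 had groups apart, all lower in *Cldn2*KO. The stem cell marker *Lgr5* stood at 8.42, 11.8 and 4.08 CPM in WT and at 2.46, 0.835 and 7.18 CPM in *Cldn2*KO, with the same replicate highest (edgeR BH-adjusted p 0.526).

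Inflammatory and cell death genes gave few calls. Of 32 tested TNF and NF-kB genes 0 were called by edgeR, 3 by DESeq2 and 8 by limma-voom, 10 had an unadjusted p under 0.05, and 25 had a log2 fold change above 0 with a median of 0.54, against -0.49 in untreated colon and -0.45 in AOM/DSS. That median was 0.28 without *Cldn2*KO replicate 2 or WT replicate 2 and 0.32 without *Cldn2*KO replicate 3. *Bcl3*, a nuclear IκB protein, stood at 16.5, 35.03 and 52.1 CPM in *Cldn2*KO and at 18.7, 13.1 and 14.5 CPM in WT (edgeR BH-adjusted p 0.0801). *Tnf* reached 11.97 CPM in *Cldn2*KO replicate 2 and did not pass 2.95 CPM in any other library. *Il22ra1*, the epithelial receptor chain for IL-22, stood at 56.8, 42.9 and 44.7 CPM against 22.5, 7.82 and 20.2 CPM (log2 fold change 1.51, edgeR BH-adjusted p 0.0659). *Stat3* had a log2 fold change of 0.62 (edgeR BH-adjusted p 0.0946). The IL-6 and IL-22 receptor list of 15 tested genes had a median of 0.11, with 0 called by edgeR, 3 by DESeq2 and 5 at an unadjusted p under 0.05. Of the apoptosis genes, *Tnfsf10*, the death ligand TRAIL, was the 1 of 27 called by edgeR, at 48.8, 26.6 and 33.003 CPM in WT and 13.4, 8.72 and 11.2 CPM in *Cldn2*KO (log2 fold change -1.71, edgeR BH-adjusted p 0.0184). *Tnfsf10* is itself induced by interferon. *Zbp1* was the 1 of 16 necroptosis and pyroptosis genes called by edgeR. DESeq2 called 4 of these lower, and of the apoptosis genes 1 higher and 3 lower. Among 25 p53 targets 0 were called by edgeR, 4 by DESeq2 and 6 at an unadjusted p under 0.05, with a median of -0.01. The 20 genes of the unfolded protein response and heat shock had a median of -0.23, with 0 called by edgeR, 1 by DESeq2 and 6 at an unadjusted p under 0.05. *Cdkn1a*, the cell cycle inhibitor p21, stood at 175, 279.5 and 206 CPM in *Cldn2*KO and at 114, 118 and 142 CPM in WT (log2 fold change 0.82, edgeR BH-adjusted p 0.0633).

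The C-type lectins of the antimicrobial list were abundant and variable across the series. *Reg3b* stood at 14506, 11954 and 18606 CPM in WT and at 2771, 4660 and 821 CPM in *Cldn2*KO, and *Reg3g* at 1165, 1446 and 1082 CPM against 285, 445 and 155 CPM. Both had groups apart and neither was called (edgeR BH-adjusted p 0.578 and 0.592), with standard errors of 2.16 and 1.87 around log2 fold changes of -2.45 and -2.06. Reg3 genes are close paralogs, and the division of reads between them is uncertain. *Duox2*, which makes hydrogen peroxide at the apical surface, stood at 98.1, 342 and 286 CPM in *Cldn2*KO and at 116, 85.7 and 63.5 CPM in WT (log2 fold change 1.45, edgeR BH-adjusted p 0.0799). Of the 22 antimicrobial and oxidase genes 0 were called by edgeR and 2 had an unadjusted p under 0.05, with a median of -0.15, and DESeq2 called 1 higher and 1 lower.

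Markers of the epithelial lineages showed no genes called by edgeR with all libraries. The median log2 fold change was 0.10 over 26 absorptive colonocyte genes, -0.04 over 20 goblet cell genes, 0.05 over 18 enteroendocrine genes, -0.16 over 23 stem cell and Wnt genes and 0.25 over 20 genes of fetal-like repair epithelium. With a recovery library left out these medians ran from 0.02 to 0.16, -0.18 to 0.06, -0.13 to 0.33, -0.50 to 0.00 and -0.02 to 0.43, so all but the colonocyte median changed sign or reached 0. limma-voom called 5 goblet cell, 2 colonocyte and 1 stem cell gene, and without *Cldn2*KO replicate 3 edgeR called 2 stem cell genes and 1 goblet cell gene lower. DESeq2 called 1 goblet cell gene and 0 in the other 4 lists, where an unadjusted edgeR p under 0.05 was met by 2 colonocyte, 0 enteroendocrine, 0 stem cell and 1 fetal-like gene, and by 5 goblet cell genes. *Muc2*, the secreted mucin, stood at 5694, 11676 and 6556 CPM in WT and at 4880, 5800 and 4003 CPM in *Cldn2*KO (log2 fold change -0.70, or -0.34 without WT replicate 2, edgeR BH-adjusted p 0.220 with all libraries). *Agr2*, a goblet cell chaperone, stood at 3004, 5815 and 3084 CPM against 1788, 1169 and 1936 CPM, apart but not called (edgeR BH-adjusted p 0.129). *Ly6a*, the fetal-like repair marker Sca-1, stood at 684, 537 and 558 CPM against 158, 315 and 388 CPM (edgeR BH-adjusted p 0.304). *Cldn2*KO replicate 3 lay below all WT libraries for 15 of the 18 enteroendocrine genes, *Cldn2*KO replicates 1 and 2 for 1 and 2. Over all tested genes these shares were 32.4%, 27.4% and 31.5%. For 20 cholesterol synthesis genes, *Cldn2*KO replicate 1 lay below all WT libraries for 15 and *Cldn2*KO replicate 3 above them for 17. Over all tested genes the shares were 27.4% and 31.1%.

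Of the metabolic lists, glycolysis and hypoxia had a median of 0.38, with 16 of 20 genes above 0, 8 apart and 0 called by edgeR, 1 by DESeq2 and 6 at an unadjusted p under 0.05. *Slc2a1*, the glucose transporter GLUT1, stood at 174, 267 and 308 CPM in *Cldn2*KO and at 130.5, 118 and 123 CPM in WT (log2 fold change 1.02, edgeR BH-adjusted p 0.0701). The glycolysis and hypoxia median was 0.20 without *Cldn2*KO replicate 3. Fatty acid oxidation and cholesterol synthesis had medians of 0.01 and 0.08, and neither edgeR with all libraries nor DESeq2 called a gene in them, with 0 of 20 at an unadjusted p under 0.05 in each. limma-voom called 1 cholesterol gene lower, and edgeR without *Cldn2*KO replicate 1 called 1 higher. Of 18 clock genes *Bhlhe40* was called, with a list median of 0.41, or 0.25 without *Cldn2*KO replicate 1. The medians of the IL-6 and IL-22 receptor, antimicrobial, p53, unfolded protein response, ribosome biogenesis, fatty acid oxidation and cholesterol lists also changed sign when a recovery library was left out.

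The test of the difference between the genotype effects in recovery and in untreated colon called 22 genes, or 0.13% of those tested, 18 with a higher effect in recovery (0.106%) and 4 with a lower one (0.0236%). The number was 0 without *Cldn2*KO replicate 2, WT replicate 2 or WT replicate 3. It was 2 without WT replicate 1, 4 without *Cldn2*KO replicate 3 and 313 without *Cldn2*KO replicate 1. The test compares 2 genotype contrasts. It shares with the recovery comparison its 6 libraries. These 6 and WT control replicate 2 lacked posterior Hox expression, unlike the other controls. Treatment and colon position therefore cannot be told apart in this test. Of the 22, 8 were also called in recovery, 6 of them higher and 2 lower, and 1 of these 2 is a predicted gene that is not named. *Sqstm1*, the autophagy receptor p62, stood at 356, 419 and 286 CPM in *Cldn2*KO and at 204, 184 and 210.4 CPM in WT. In untreated colon it averaged 176 ± 9.93 CPM in *Cldn2*KO and 259 ± 28.1 CPM in WT (SD, n = 3 each). Its log2 fold change was 0.83 in recovery and -0.56 in untreated colon, and the difference of 1.39 had an edgeR BH-adjusted p of 0.0272. *Mst1r*, the RON receptor for macrophage-stimulating protein, stood at 75.02, 99.98 and 95.2 CPM against 57.0, 59.3 and 53.9 CPM in recovery (log2 fold change 0.67, and -0.48 in untreated colon). *Inava*, a regulator of epithelial junctions linked to inflammatory bowel disease, had log2 fold changes of 0.86 and -0.53. *Mfn2*, a mitochondrial fusion protein, *Arhgef5* and *Ell* followed the same pattern, and *Nt5c3b* the reverse. No gene's genotype effect was called as different between recovery and AOM/DSS by edgeR (0%, 0% higher and 0% lower) or by limma-voom. DESeq2 called 9, and 732 genes had an unadjusted edgeR p under 0.05. Of the 93 genes called higher in recovery, 27 had the same sign in untreated colon and 90 in AOM/DSS, with medians of -0.11 and 0.29, and 0 were called in either by edgeR. Over all tested genes above 0 in recovery the same-sign shares were 46.1% and 64.9%.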

How the data were processed

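RNA was isolated from colon tissue with a Zymo Quick-RNA kit and sequenced on an Illumina NovaSeq. The paper's methods name TopHat2 for alignment, the submitters' processing notes name HISAT2, and both name featureCounts. The build is GRCm38. The sources used here give no strand setting, annotation release or rule for multi-mapping reads. The authors deposited raw counts per gene, not normalized, in 36 columns for 18 libraries on 2 lanes. All columns matched a library. Lanes were summed. Symbols for 47224 of 47729 genes came from GENCODE M21.

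Genes were filtered with filterByExpr, scaled by TMM and tested with edgeR 4.0.16 (limma 3.58.1, R 4.3.3) in 1 robust quasi-likelihood fit of all 18 libraries with 6 group means, a biological coefficient of variation of 0.315 and 12 residual degrees of freedom. An SE is the log2 fold change divided by the square root of F. Levels are TMM-scaled CPM. DESeq2 1.42.0 and limma-voom with sample weights (called limma-voom here), which changes both the test and the weighting of libraries, were alternatives. On simulated counts for this comparison with 16937 genes, 25.7% of 2-fold and 88% of 4-fold changes were recovered, all of them in genes over 1 CPM. Promoter windows came from RefSeq. Each of the 10 GTPase and 27 antiviral genes counted had 1 or more windows, and the other members had none.

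The samples, the 29 gene lists (648 genes, 625 tested) and the tests were chosen with earlier results of these data known. Named genes were *Cldn2*; up to 15 called genes in each direction with the largest change, groups apart and a mean of at least 1 CPM; the first 4 genes of each list, its called members and its 3 largest uncalled changes; up to 10 called genes outside the lists with the lowest adjusted p; and genes also called in a difference between treatments. Predicted genes and antigen receptor segments were not named. Some genes that the rule names are not reported here. No set test was run.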

Additional observations from a re-analysis of the deposited data

Results flagged for a closer look

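The genotype effect in recovery differed from that in untreated colon for 22 genes by the edgeR interaction test, 8 of which are named here. The recovery libraries and WT control replicate 2 lacked posterior Hox expression, unlike the other controls. Treatment and colon position therefore cannot be told apart in this difference. The difference in log2 fold change was 3.65 for *Duox2* (SE 0.60, edgeR BH-adjusted p 0.0361), whose effect was 1.45 in recovery and -2.20 in untreated colon, where WT averaged 385 ± 52.1 CPM and *Cldn2*KO 83.9 ± 19.7 CPM (SD, n = 3 each). It was 1.39 for *Sqstm1*, 1.39 for *Inava*, 1.37 for *Mfn2*, 1.30 for *Ell*, 1.15 for *Mst1r* and 0.95 for *Arhgef5*, each higher in *Cldn2*KO recovery in 3 of 3 libraries. It was -1.50 for *Nt5c3b*, a nucleotidase, which was lower in 3 of 3. edgeR BH-adjusted p values of these 7 differences lay between 0.0272 and 0.0484. The number of genes with such a difference was 0 when *Cldn2*KO recovery replicate 2, WT recovery replicate 2 or WT recovery replicate 3 was left out.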

How the results depend on the processing

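The number of genes called in recovery (165, with 93 higher and 72 lower) was 71 with no filter (35 and 36), 1351 with DESeq2 (567 and 784), 1900 with limma-voom and sample weights (927 and 973), 23 in a fit of the 6 recovery libraries (1 and 22), 56 with sex as a covariate (27 and 29) and 704 with *Xist*-expressing recovery libraries (328 and 376). Upper-quartile scaling gave 109 lower genes. The 6-library fit kept the calls of 0 of the 93 higher and 18 of the 72 lower genes. Leaving out each library in turn gave 3 to 453 genes, 0 to 286 higher and 3 to 345 lower. Among settings added after seeing the data, removing the length trend gave 93 genes (46 and 47), removing length and GC trends 46 (13 and 33), and leaving out the control library without *Hoxb13* 503 (221 and 282). The difference from control (22 genes) was called for 12 genes with upper-quartile scaling, 877 with DESeq2, 1754 with limma-voom, 6 with the sex covariate, 352 with *Xist*-expressing libraries, 14 and 7 with length or length and GC trends removed, and 0 to 313 with a library left out. The difference from AOM/DSS was called for 0 genes with any library left out, 9 with DESeq2, and 1 and 2 with those trends removed. The median of MHC class II genes (-0.93) was -2.89 in the 6-library fit, which has values for 13 of the 16, and -2.01 to -0.44 with a library left out, and that of mitosis -2.17 to -0.66. Tight junction and brush border medians were 0.29 and 0.43 with the length trend removed, 0.31 and 0.33 with length and GC trends removed, and 0.32 to 0.50 and 0.44 to 0.55 with a library left out. The causes were not tested. Among the 62 called genes named, no sign reversed in 1178 pairs of gene and setting. Of 551 list medians under other settings, 514 moved by less than 1 SD of the list's mean level between libraries. That SD was 0.88 for mitosis genes and 0.56 for EGF family ligands, so a large move could fall within it. The 6-library fit cannot give the differences between treatments. No paired analysis was possible because the recovery libraries carry animal numbers that the genotypes do not share. Simulated 2-fold changes were recovered in 25.7% of the genes changed, so many changes of that size could be missed at 3 against 3. The simulation held no outlying library and no length trend, and its share may differ from that in these data.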
